A study of Mus musculus with 12 samples.

Results

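The question addressed here is whether the effect of an shRNA against Myb on airway epithelial cultures differed between an early and a late day of differentiation. The quantity is the interaction of day and shRNA, the log2 difference between Myb shRNA and scrambled shRNA cultures on day 9 minus the same difference on day 3. All 12 arrays of the series enter it, and it was tested for 9381 of the 20289 genes named on the array, those detected (p under 0.01, from the array software) on 3 arrays or more. Of these, 155 genes passed at a Benjamini-Hochberg adjusted p of 0.05 in limma.

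The cultures were primary tracheal epithelial cells of male C57BL/6J mice, grown on porous membranes with their upper side exposed to air (air-liquid interface, ALI). The 4 groups, each of 3 biological replicates, were day 9 Myb shRNA, day 9 scrambled shRNA, day 3 Myb shRNA and day 3 scrambled shRNA. Every culture, controls included, had been given a lentiviral shRNA, and age was not given in the sources used here. RNA was taken from whole cultures, so fewer cells of a type and less RNA per cell cannot be told apart.

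Myb encodes a transcription factor of progenitor cells that acts early in airway epithelial differentiation. In ALI culture, basal cells give rise to secretory cells and to multiciliated cells. In multiciliated cells Mcidas and its partners switch on genes that amplify centrioles, and the genes for the motile axoneme follow.

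Levels below are normalised log2 intensities, differences are on the log2 scale with their SE, and n = 3 arrays per group. Myb itself could not be followed: 4 probes measure it, the brightest was detected on 0 arrays and any of the others on 1 at most, so the knockdown was not checked and groups follow their labels. Krt5, Krt8, Krt14, Cdh1, Trp63 and Scgb1a1, genes of basal, luminal and club cells, were detected on 12 arrays and the ciliated cell gene Foxj1 on 10, while Epcam was detected on 0. The endothelial genes Pecam1, Cdh5 and Tek, the leukocyte genes Ptprc and Cd3e, and the fibroblast genes Col1a1, Col1a2, Col3a1, Pdgfra, Pdgfrb and Lum were each detected on 0 arrays. Other markers of these cells were present: the fibroblast and muscle genes Dcn and Acta2 and the macrophage gene Cd68 were detected on 12 arrays each, Vim on 3 and the endothelial gene Kdr on 1. The 4 arrays numbered 3 stood apart from the rest: deviations from the group mean correlated at -0.35 on average between them and the others. Without those 4 arrays 1410 genes passed, 151 of them among the 155.

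Of the 155 genes, 70 had an interaction above 0 and 85 below 0, which is 1.65% of the genes tested in all, 0.746% above and 0.906% below. At day 9 alone, 6.65% of genes were higher and 9.48% lower with Myb shRNA, and at day 3 alone 11.5% were higher and 11.2% lower. These day counts were 1513 genes at day 9 (2331 with a replicate block, 997 when Myb shRNA replicate 2 of day 9 was left out and 949 when scrambled replicate 3 of day 9 was) and 2134 at day 3 (3400 with the block). The interaction count also moved with the fit. Arrays of the same number deviated together within each day. Arrays numbered 1 and 2 did so with each other too, at 0.256 on average over both days, beside 0.265 and 0.228 within these numbers. Over both days a pairing by number is thus not shown for 1 and 2. Their same-number pairs stood higher within day 9 and did not stand apart within day 3. With the number as a block within day 893 genes passed (9.52% of genes tested, 403 genes above 0 and 490 below), all 155 among them. The count was 715 with 1 block over both days and 1835 with array weights, against 47 with arrays centred on their medians and 80 with genes detected on all 12 arrays. The median interaction over all genes was 0.03, and the smallest that passed was 0.64 in size. The count also depended on single arrays. It was 52 without day 3 Myb shRNA replicate 1 and 63 without day 9 Myb shRNA replicate 2. It was 92 without day 9 Myb shRNA replicate 1, and 86, 92 and 84 without day 9 scrambled replicates 1, 2 and 3. Leaving out day 3 scrambled replicate 2 gave 97, and leaving out day 3 scrambled replicate 3 gave 328. In all 12 fits that each left out 1 array, 50 of the 155 genes passed.

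The genes fall into 4 kinds by the sign of the interaction and the day with the larger shRNA difference. This sorting fixes the direction of the larger difference in each kind, so that direction is no finding. Genes are counted as lower or higher on a day where the difference within that day passed. The larger difference has a smaller SE than the interaction, so a call for the interaction nearly fixes that this difference passed too. That all genes of a kind passed on the day of the larger difference is thus no finding either. In 62 genes the interaction was above 0 and the day 3 difference was the larger; all 62 were lower with Myb shRNA at day 3, and at day 9 30 were still lower and 6 were higher. In 44 genes it was below 0 with the larger difference at day 3; all 44 were higher with Myb shRNA at day 3, and at day 9 4 were higher and 2 lower. In 41 genes it was below 0 with the larger difference at day 9; all 41 were lower with Myb shRNA at day 9, while at day 3 2 were higher and 5 lower. In the remaining 8 genes it was above 0 with the larger difference at day 9, where all 8 were higher with Myb shRNA.

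**Figure D1:**
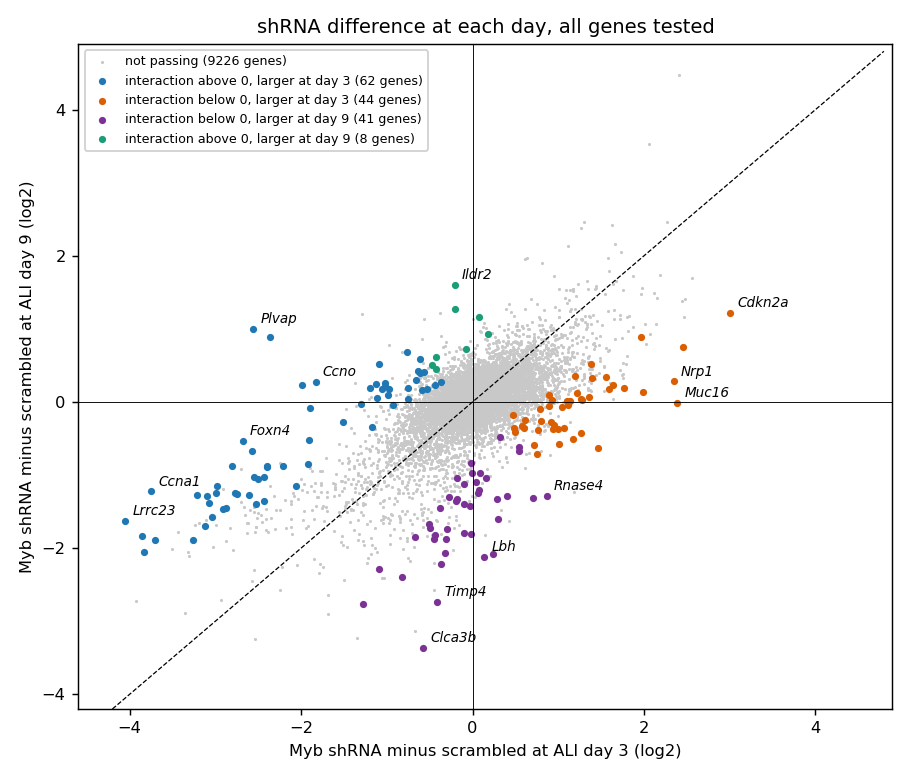
Each point is 1 of the genes tested, with the log2 difference of Myb shRNA minus scrambled at day 9 on the vertical axis and at day 3 on the horizontal axis. The dashed line marks equal differences; the 155 coloured genes passed the interaction test, 62 of them to the left of and above the line with a larger difference at day 3, and 41 below it with a larger difference at day 9.

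Since the shRNA is aimed at a transcription factor, the 250 bases before the annotated start are shown for the gene with the largest interaction of each kind that has an entry in the promoter table (RefSeq, GRCm38.p6, 5′ to 3′ on the gene's strand). Plvap, which leads the 62, has none. Capitals mark matches on either strand to AACNG, the core of the sequence Myb binds, and to GTTGCC, part of the site of the RFX factors of ciliary genes. The 2 motifs share no overlap in the Shisa8 window, and overlapping AACNG matches on opposite strands show as 1 stretch of capitals.
Shisa8 promoter, chr15:82212816-82213065, minus strand: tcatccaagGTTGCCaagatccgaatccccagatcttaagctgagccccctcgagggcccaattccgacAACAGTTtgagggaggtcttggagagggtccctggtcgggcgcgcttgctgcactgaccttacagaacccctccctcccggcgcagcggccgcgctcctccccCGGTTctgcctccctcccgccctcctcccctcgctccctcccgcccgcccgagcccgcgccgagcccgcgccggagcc
Muc16 promoter, chr9:18674604-18674853, minus strand: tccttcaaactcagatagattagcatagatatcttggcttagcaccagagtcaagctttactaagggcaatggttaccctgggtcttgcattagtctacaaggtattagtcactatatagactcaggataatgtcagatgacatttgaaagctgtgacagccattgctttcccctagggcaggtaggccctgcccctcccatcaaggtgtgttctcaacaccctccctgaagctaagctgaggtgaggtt
Clca3b promoter, chr3:144849303-144849552, minus strand: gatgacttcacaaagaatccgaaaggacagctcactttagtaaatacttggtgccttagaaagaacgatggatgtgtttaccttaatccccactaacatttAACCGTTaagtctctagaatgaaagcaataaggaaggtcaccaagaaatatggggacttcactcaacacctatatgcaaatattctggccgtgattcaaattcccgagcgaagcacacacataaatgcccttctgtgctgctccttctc
Ildr2 promoter, chr1:166253889-166254138, plus strand: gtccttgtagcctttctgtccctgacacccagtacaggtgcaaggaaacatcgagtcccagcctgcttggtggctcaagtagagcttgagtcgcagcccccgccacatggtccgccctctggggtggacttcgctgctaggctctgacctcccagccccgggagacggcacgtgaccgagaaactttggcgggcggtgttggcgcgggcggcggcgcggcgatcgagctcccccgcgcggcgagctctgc
The AACNG core matched 3 times in the Shisa8 window, where 2 matches overlap on opposite strands. It matched 2 times in the Clca3b window, where both overlap in the same way, and 0 times in those of Muc16 and Ildr2. GTTGCC matched 1 time, in Shisa8. The core is common: 72.4% of the 7536 promoters of tested genes in the table hold it, and 10.8% hold GTTGCC. Of 44 promoters among the 62 genes, 86.4% held AACNG and 27.3% GTTGCC. For the 44 genes higher at day 3 the shares were 56.2% and 6.25% of 32 promoters, and for the 41 genes lower at day 9 they were 70% and 13.3% of 30. For the last 8 genes they were 50% and 12.5% of 8. These shares are descriptions of letters, with no test of the difference.

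Several regulators that start multiciliogenesis were lower with Myb shRNA at day 3 by more than at day 9, and for Ccno and Mcidas the groups overlapped at day 9. Of 11 regulators measured, 4 passed with an interaction above 0 and none below, against 1.65% of all genes, and the list's median interaction was 0.97, beside 0.03 for all genes. This list, like the others below, was drawn up with earlier results of these data known, so its counts are descriptions and no test. The median difference of the list was -0.42 at day 9 and -1.48 at day 3, and 2 members fell at day 9, against 7 at day 3 (9.48% and 11.2% of all genes fell). Ccno, a cyclin needed to amplify centrioles, read 11.64, 11.74 and 12.10 with Myb shRNA and 11.59, 11.77 and 11.30 with scrambled shRNA at day 9. Day 3 cultures gave 10.17, 10.06 and 10.55 with Myb shRNA, and 11.72, 11.90 and 12.65 with scrambled shRNA. The groups thus overlapped at day 9 and did not at day 3. The Ccno difference of 0.28 at day 9 did not pass (limma adjusted p = 0.464), while that of -1.83 at day 3 did (adjusted p = 6.28e-05), an interaction of 2.11 ± 0.31 (adjusted p = 0.00579).

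Mcidas, the coregulator at the head of the programme, gave the same order of groups. It read 8.10, 7.87 and 8.92 with Myb shRNA against 8.25, 8.11 and 7.86 with scrambled shRNA at day 9. The day 3 levels were 6.50, 6.32 and 7.00 with Myb shRNA against 8.22, 8.15 and 9.41 with scrambled shRNA. The interaction was 2.21 ± 0.46 (adjusted p = 0.0293). It passed in 6 of 12 fits that left out 1 array, with an adjusted p of up to 0.0972 (without day 3 Myb shRNA replicate 1), and had an adjusted p of 0.104 with arrays centred on their medians.

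Foxn4, a transcription factor of multiciliated precursors, read 6.60, 6.71 and 6.93 with Myb shRNA and 7.25, 7.61 and 6.97 with scrambled shRNA at day 9. At day 3 the values were 5.25, 5.31 and 5.63 with Myb shRNA, where 1 of 3 arrays detected it, and 7.60, 7.87 and 8.77 with scrambled shRNA. All Myb shRNA arrays were below all scrambled arrays on both days, by a wider gap at day 3, and the interaction was 2.15 ± 0.37 (adjusted p = 0.0112). Ccna1, a cyclin known mainly from meiosis, was not well above background on any day 3 Myb shRNA array and was at least 9.12-fold lower there. It read 7.47, 7.26 and 8.09 with Myb shRNA and 8.78, 8.88 and 8.81 with scrambled shRNA at day 9, a difference of -1.22. Its interaction of 2.53 ± 0.29 (adjusted p = 0.0019) rests on background values in 1 group. Of the other regulators, Mycl (1.39, adjusted p = 0.156) and Foxj1, the master factor of motile cilia (0.97, adjusted p = 0.248), did not pass. Both did with the replicate number as a block within day (adjusted p = 0.000262 for Mycl and 0.0244 for Foxj1). This brought the list to 6 of 11, where 9.52% of all genes passed. Rfx2, a factor of ciliary genes, was at -0.24 (adjusted p = 0.834).

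Among the regulators, Ccno, Mcidas and Foxn4 rose between day 3 and day 9 by 1.57, 1.69 and 1.35 with Myb shRNA (adjusted p = 0.00025, 0.0027 and 0.0027). With scrambled shRNA they changed by -0.54, -0.52 and -0.81, of which the Foxn4 fall passed (adjusted p = 0.0488). Others of the list differed from this: the change with day was 1.07 with Myb shRNA and 1.32 with scrambled shRNA for Rfx2, and 1.91 and 1.42 for Ccdc78, a protein of the structures on which centrioles form. Over the 62 genes, 55 rose with day under Myb shRNA and 0 fell, while 23 rose and 14 fell under scrambled shRNA. The interaction is also the change with day under Myb shRNA minus that under scrambled shRNA. A contrast between the arms is thus built into genes chosen by it. Over all genes tested the median change was -0.03 under Myb shRNA and -0.07 under scrambled shRNA. The share of all genes that passed for a change with day is not given here. The counts for the 62 genes are thus descriptions.

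Of 15 centriole assembly genes, which act downstream of these regulators, none passed, and the median interaction was 0.31; 5 of them fell at day 9 and 8 at day 3, against 9.48% and 11.2% of all genes. With the replicate number as a block within day 2 passed, Cetn4 and Cep152, where 9.52% of all genes did. Cep152, a scaffold of centriole duplication, had 1.25 ± 0.31 (adjusted p = 0.0654, and 0.00522 with the block), with differences of 0.06 at day 9 and -1.18 at day 3.

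**Figure D2:**
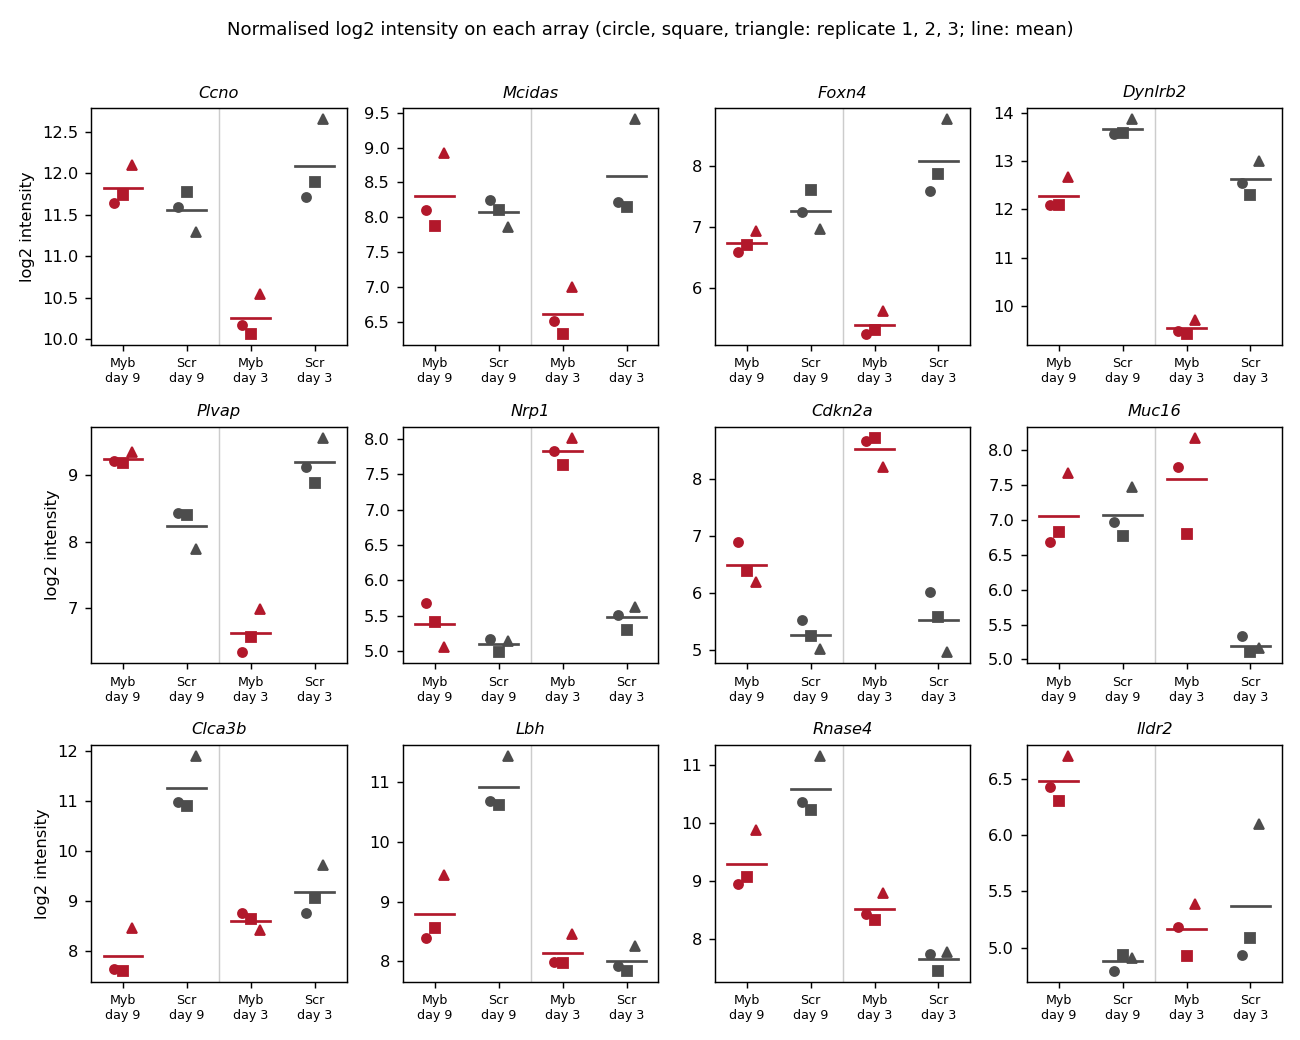
Normalised log2 intensity of 12 genes on each array, with 1 panel per gene, Myb shRNA in red and scrambled shRNA in grey, and day 9 left of day 3. Each point is 1 array and each line a group mean of 3; Ccno with Myb shRNA lies between 10.06 and 10.55 at day 3, below every other array, and the vertical axis of each panel has its own range.

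Genes of the motile axoneme, the moving core of the cilium, were mostly lower with Myb shRNA on both days, and some of them by fewer log2 units at day 9. Of 54 measured, 45 fell at day 9, against 9.48% of all genes, and 38 at day 3, against 11.2%. Of the 54, 6 passed the interaction test, all above 0, against 0.746% of all genes above 0 and 1.65% in either direction. With the replicate number as a block within day 19 passed above 0 and 5 below, against 403 and 490 of 9381 genes. The 5 below included the dynein heavy chains Dnah1, Dnah5 and Dnah9. The median interaction of the list was 0.35, with median differences of -1.44 at day 9 and -1.59 at day 3. Dynlrb2, a dynein light chain, read 12.09, 12.10 and 12.67 with Myb shRNA and 13.57, 13.58 and 13.87 with scrambled shRNA at day 9. On day 3 the readings were 9.49, 9.42 and 9.72 with Myb shRNA and 12.54, 12.31 and 13.01 with scrambled shRNA. No Myb shRNA array reached a scrambled array of its day, and the difference was -1.39 at day 9 and -3.08 at day 3. The interaction was 1.69 ± 0.26 (adjusted p = 0.00725).

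Lrrc23, a radial spoke protein, had the largest interaction of the list. It read 8.87, 9.01 and 9.72 with Myb shRNA against 10.71, 10.79 and 10.97 with scrambled shRNA at day 9. Day 3 cultures gave 6.12, 6.79 and 6.40 with Myb shRNA against 10.20, 10.29 and 10.99 with scrambled shRNA. The differences were -1.62 at day 9 and -4.06 at day 3, without overlap on either day, and the interaction was 2.43 ± 0.35 (adjusted p = 0.00538). Morn5, a ciliary gene outside the lists, gave -1.83 at day 9 and -3.85 at day 3 (interaction 2.02 ± 0.24, adjusted p = 0.00204). Dnali1, an inner arm dynein light chain, had 1.75 ± 0.30 (adjusted p = 0.0114), but a second probe of it gave -0.31 (adjusted p = 0.702), and the mean of its probes did not pass (adjusted p = 0.279).

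Other axoneme genes passed less firmly. Rsph9, a radial spoke protein, had 1.13 ± 0.22 (adjusted p = 0.023) and passed in 9 of 12 fits that left out 1 array (adjusted p up to 0.0673). Tekt1, a tektin of the axonemal microtubules, had 1.78 ± 0.39 (adjusted p = 0.0382; 6 of 12 fits, up to 0.112). Cfap45, a protein inside these microtubules, had 1.52 ± 0.35 (adjusted p = 0.0458; 3 of 12 fits, up to 0.132). For all 3 the highest p came without day 3 Myb shRNA replicate 1. Tekt1 and Cfap45 did not pass in the authors' deposited log2 values either (adjusted p = 0.106 and 0.0866).

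For 6 of the ciliary genes named above the sign of the interaction depended on the scale. On unlogged normalised intensities, the gap between Myb shRNA and scrambled cultures was wider at day 9 for Dynlrb2, whose interaction was -2359 intensity units. It was -1051 for Tekt1, -618.4 for Rsph9, -322.1 for Morn5, -175.4 for Dnali1 and -157.6 for Cfap45, all below 0. The regulators kept their sign: it was 3945 for Ccno, 382.1 for Mcidas, 196.4 for Foxn4 and 133.8 for Ccna1, and 189.5 for Lrrc23. Of the 62 genes, 42 kept their sign on this scale, and of all 155, 135 did. These values come with no test. In log2 units Dynlrb2 rose between day 3 and day 9 by 2.74 with Myb shRNA and by 1.05 with scrambled shRNA (adjusted p = 7.56e-07 and 0.00166).

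Dynein arm assembly factors, which build the motor before it enters the cilium, fell in 10 of 12 cases on each day (9.48% of all genes at day 9 and 11.2% at day 3), and 1 passed the interaction test. This was Zmynd10, with 7.83, 7.64 and 8.23 under Myb shRNA against 9.22, 8.89 and 9.42 under scrambled shRNA at day 9. The day 3 levels were 5.57, 5.28 and 5.62 under Myb shRNA, where 2 of 3 arrays detected it, against 8.42, 8.48 and 9.21 under scrambled shRNA. The groups did not overlap on either day and the interaction was 1.94 ± 0.32 (adjusted p = 0.00867; 0.0669 with arrays centred on their medians). Dnaaf1, another assembly factor, had 1.71 ± 0.43 (adjusted p = 0.0668) and passed with the replicate number as a block within day (adjusted p = 0.000346). In all 3 of the 12 did so, beside 9.52% of all genes. None of 30 intraflagellar transport and BBSome genes, which carry cargo along the cilium, passed. Their median interaction was -0.02, and 19 fell at day 9 and 14 at day 3, again against 9.48% and 11.2%. Ift22 had 0.93 ± 0.23 (adjusted p = 0.0618); with the block it passed (adjusted p = 0.00668), as did Ift172 below 0.

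**Figure D3:**
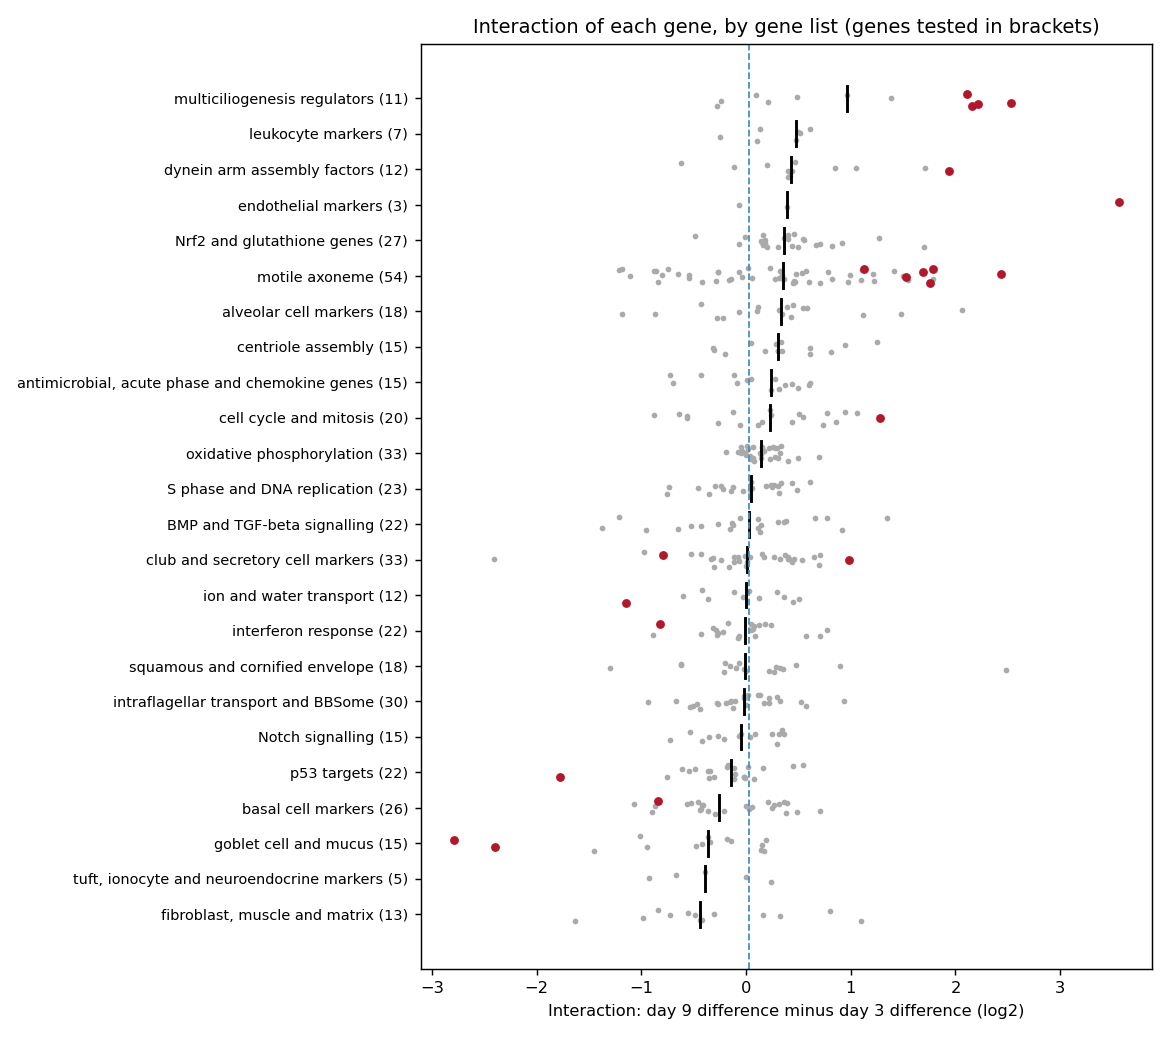
The interaction of every tested gene in 24 gene lists, in log2 units, with 1 point per gene, red where it passed, a black bar at the list median and a dashed line at the median of all genes tested (0.03). The multiciliogenesis regulators have the highest median, 0.97, with 4 red points, and the fibroblast, muscle and matrix list the lowest, -0.44, with none.

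The gene with the largest interaction of all was Plvap, whose protein forms the diaphragms of endothelial fenestrae and caveolae. It read 9.21, 9.18 and 9.35 with Myb shRNA and 8.43, 8.41 and 7.89 with scrambled shRNA at day 9. On day 3 the readings were 6.34, 6.57 and 6.99 with Myb shRNA and 9.13, 8.89 and 9.56 with scrambled shRNA. All Myb shRNA arrays were thus above all scrambled arrays at day 9 and below them at day 3. Its difference of 1.01 at day 9 had an adjusted p of 0.0044, its difference of -2.56 at day 3 had one of 2.2e-06, and the interaction was 3.56 ± 0.29 (adjusted p = 0.000121). The other endothelial genes measured did not pass (Esam 0.39 and Egfl7 -0.06). The defining endothelial markers Pecam1, Cdh5 and Tek were detected on 0 arrays and Kdr on 1.

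Plvap was 1 of 12 genes that passed at both days in opposite directions. All 12 also passed the interaction test, which calls in opposite directions at both days nearly fix. Shisa8, of a family of AMPA receptor auxiliary proteins, read 7.64, 7.51 and 8.14 with Myb shRNA and 6.98, 7.03 and 6.63 with scrambled shRNA at day 9. Day 3 cultures gave 5.51, 5.05 and 5.78 with Myb shRNA, detected on 2 of 3 arrays, and 7.55, 7.55 and 8.31 with scrambled shRNA. It too was above scrambled on every array at day 9 and below it at day 3, with an interaction of 3.24 ± 0.35 (adjusted p = 0.00154). Cyp4a12a, a fatty acid hydroxylase, differed by 0.69 at day 9 and -0.76 at day 3 (interaction 1.45 ± 0.23, adjusted p = 0.00782). Cyp4a12b gave 0.58 and -0.61, but the sequences of these genes are nearly the same and their probes may share signal. Osbpl3, an oxysterol-binding family member, went the other way, at -0.71 at day 9 and 0.75 at day 3 (interaction -1.46 ± 0.25, adjusted p = 0.0111).

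Cdk1, the kinase that drives entry into mitosis, was the 1 of 20 cell cycle genes that passed. It read 8.51, 8.43 and 8.41 with Myb shRNA and 8.80, 8.47 and 8.15 with scrambled shRNA at day 9, and these groups overlapped. The day 3 levels were 8.04, 8.02 and 8.11 with Myb shRNA, below the 9.50, 9.25 and 9.32 with scrambled shRNA. The interaction was 1.28 ± 0.21 (adjusted p = 0.00886). The list's median interaction was 0.23, and of 23 S phase genes none passed (median 0.05). With the block within day 3 cell cycle genes passed, all above 0, and 3 S phase genes, 1 above 0 and 2 below, where 9.52% of all genes passed.

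A further 44 genes were higher with Myb shRNA at day 3 and less so, or not, at day 9. Nrp1, a coreceptor for semaphorins and VEGF, read 5.68, 5.41 and 5.06 with Myb shRNA and 5.18, 4.98 and 5.14 with scrambled shRNA at day 9, where 1 Myb shRNA array and 0 scrambled arrays detected it. On day 3 the readings were 7.83, 7.63 and 8.02 with Myb shRNA and 5.52, 5.29 and 5.62 with scrambled shRNA, where 1 of 3 arrays detected it. The day 3 Myb shRNA group was the one detected on all of its arrays, and the interaction was -2.06 ± 0.25 (adjusted p = 0.00208). Nid1, a basement membrane protein, was detected in that group alone and was there at least 2.40-fold higher than with scrambled shRNA (interaction -1.85 ± 0.29, adjusted p = 0.00725). Spon2, a secreted matrix protein, had 8.13, 8.07 and 8.22 with Myb shRNA against 5.55, 5.93 and 5.58 with scrambled shRNA at day 3. At day 9 it was at least 1.19-fold higher with Myb shRNA, and the interaction was -1.69 ± 0.25 (adjusted p = 0.00579).

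The fibroblast, muscle and matrix list gave no call among 13 genes (median interaction -0.44). Its summed intensity ranged over 4005 to 4864 with Myb shRNA and 1810 to 2441 with scrambled shRNA at day 9, and over 9051 to 9419 with Myb shRNA and 3132 to 5598 with scrambled shRNA at day 3. Among the defining markers the collagen and Pdgf receptor genes were detected on 0 arrays, while Dcn and Acta2 were detected on 12 and Vim on 3, and the part of these genes in the result was not tested. Fn1, fibronectin, had -1.63 ± 0.44 (adjusted p = 0.0876). With the replicate number as a block within day it passed (adjusted p = 0.000407), and so did Lox, an enzyme that crosslinks collagen, at -0.98.

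Cdkn2a, which encodes inhibitors of the cell cycle, read 6.88, 6.39 and 6.19 with Myb shRNA and 5.53, 5.25 and 5.03 with scrambled shRNA at day 9, where no scrambled array detected it. Day 3 cultures gave 8.65, 8.72 and 8.20 with Myb shRNA and 6.02, 5.59 and 4.96 with scrambled shRNA. Myb shRNA arrays were above scrambled arrays on both days, at least 1.99-fold at day 9 and by 3.00 log2 units at day 3. The interaction was -1.78 ± 0.37 (adjusted p = 0.0284). It passed in 5 of 12 fits that left out 1 array (adjusted p up to 0.0974, without day 3 Myb shRNA replicate 1), and a second probe also passed, at -1.65, while one more, at -0.20, did not. It was the 1 of the 22 genes of the p53 list that passed, beside 1.65% of all genes. Of the 22, 5 rose at day 9, where 6.65% of all genes did, and 13 at day 3, where 11.5% did. With the block within day Mdm2, a ubiquitin ligase of p53, and Polk, a DNA polymerase, also passed, both below 0.

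Muc16, a membrane mucin, was not well above background with scrambled shRNA at day 3, and Myb shRNA cultures were at least 4.00-fold higher there, at 7.77, 6.80 and 8.18. At day 9 it read 6.68, 6.83 and 7.68 with Myb shRNA and 6.97, 6.78 and 7.47 with scrambled shRNA, which overlapped. The interaction was -2.40 ± 0.46 (adjusted p = 0.0204; 7 of 12 fits that left out 1 array, up to 0.0734 without day 3 Myb shRNA replicate 1). Ddit4l, an inhibitor of mTOR signalling, had differences of -0.42 at day 9 and 1.26 at day 3 (interaction -1.68 ± 0.33, adjusted p = 0.0206; 8 of 12 fits). Dennd2a, an activator of Rab proteins, had -0.51 at day 9 and 1.17 at day 3 (interaction -1.68 ± 0.31, adjusted p = 0.0151; 11 of 12 fits, 0.0579 without day 3 Myb shRNA replicate 1). Pcbd1, a cofactor of HNF1 factors, was at background in day 9 Myb shRNA and day 3 scrambled cultures and had -2.09 ± 0.34 (adjusted p = 0.00867).

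The basal cell receptor gene Egfr had an interaction of -0.84 ± 0.20 (adjusted p = 0.0481) from differences of 0.36 at day 9 and 1.20 at day 3. It passed in 2 of 12 fits that left out 1 array, and none of its 4 other detected probes passed, from -0.83 to -0.08. No other of 26 basal cell markers passed. At day 9 7 rose and 0 fell, against 6.65% and 9.48% of all genes, and at day 3 14 rose and 2 fell, against 11.5% and 11.2%. Itga3, an integrin subunit, had -0.90 ± 0.23 (adjusted p = 0.0727, and 0.0041 with the block within day). With the block 2 markers passed above 0 and 5 below, against 403 and 490 of 9381 genes. None of 18 squamous genes passed, and with the block 2 did, Krt4 above 0 and Sprr1a below, where 9.52% of all genes did. The chloride channel gene Ano1 was the 1 of 12 ion and water transport genes that passed, at -1.15 ± 0.26 (adjusted p = 0.0465; 3 of 12 fits), and with the block the water channel gene Aqp5 passed too, above 0. Of the 44 genes higher at day 3, 36 fell with day under Myb shRNA and 1 rose, while under scrambled shRNA 12 rose and 2 fell. Here too a contrast between the arms is built into the choice by interaction, and the share of all genes changing with day is not given.

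**Figure D4:**
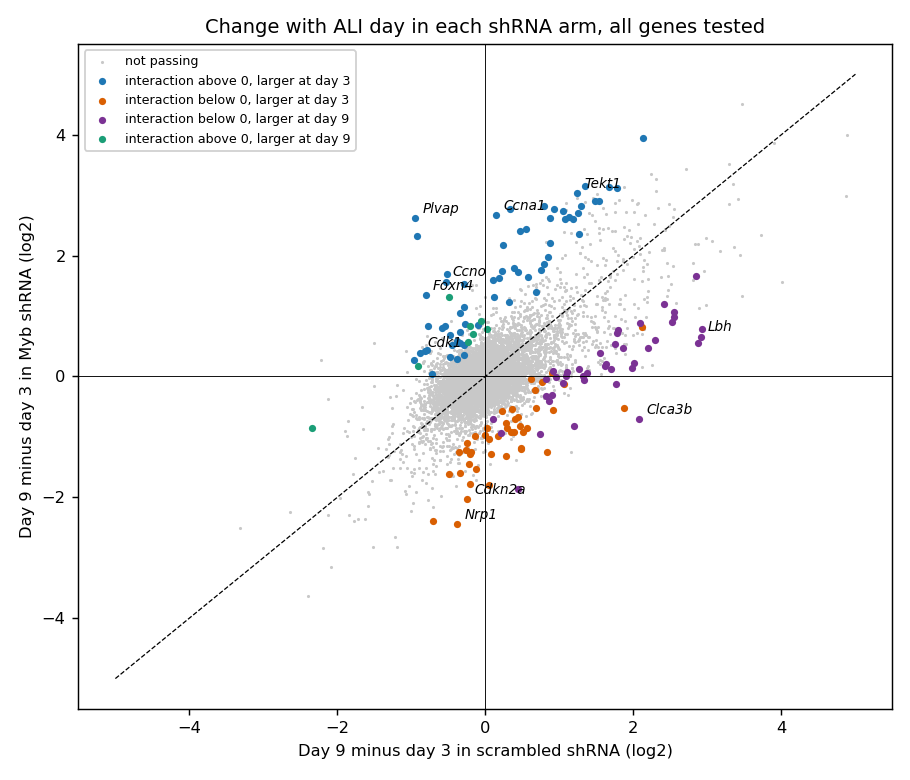
Each point is 1 of the genes tested, with the log2 change of day 9 minus day 3 under Myb shRNA on the vertical axis and under scrambled shRNA on the horizontal axis. The dashed line marks equal changes, and coloured genes were chosen by their distance from it relative to its error. Of the 41 genes lower at day 9 (purple) 38 rose with day under scrambled shRNA and 8 under Myb shRNA. These counts are descriptions, without the share of all genes beside them.

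A further group of genes was induced by day 9 with scrambled shRNA and less, or not, with Myb shRNA. Of the 41 genes lower with Myb shRNA at day 9, 38 rose with day under scrambled shRNA, while 8 rose and 4 fell under Myb shRNA. Again a contrast between the arms is built into the choice by interaction, and the share of all genes changing with day is not given. In 26 of the 41 at least 1 group had no array above background, as in 46 of all 155 genes that passed. Clca3b, of a family of secreted regulators of chloride channels, read 7.64, 7.60 and 8.45 with Myb shRNA and 10.98, 10.89 and 11.90 with scrambled shRNA at day 9. The day 3 levels were 8.75, 8.64 and 8.42 with Myb shRNA and 8.75, 9.05 and 9.72 with scrambled shRNA. The groups were far apart at day 9, while at day 3 the lowest scrambled array lay beside the highest Myb shRNA array. The difference was -3.36 at day 9 and -0.57 at day 3, and the interaction was -2.79 ± 0.43 (adjusted p = 0.00687).

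Lbh, a transcriptional cofactor first known from limb and heart, read 8.39, 8.55 and 9.45 with Myb shRNA and 10.69, 10.62 and 11.44 with scrambled shRNA at day 9. On day 3 the readings were 8.00, 7.98 and 8.46 with Myb shRNA and 7.92, 7.84 and 8.26 with scrambled shRNA. The groups overlapped at day 3 and were apart at day 9, with an interaction of -2.26 ± 0.39 (adjusted p = 0.0112). Timp4, an inhibitor of matrix metalloproteinases, read 5.24, 5.11 and 5.97 with Myb shRNA and 8.26, 7.86 and 8.39 with scrambled shRNA at day 9. It was at or near background in both day 3 groups, and its interaction was -2.32 ± 0.33 (adjusted p = 0.00538). Lbh and Timp4 rose with day by 2.91 and 2.87 under scrambled shRNA, while changes of 0.65 and 0.55 under Myb shRNA did not pass.

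Rnase4, a secreted ribonuclease, read 8.95, 9.07 and 9.87 with Myb shRNA and 10.36, 10.22 and 11.15 with scrambled shRNA at day 9. Day 3 cultures gave 8.42, 8.33 and 8.79 with Myb shRNA and 7.73, 7.45 and 7.78 with scrambled shRNA. It was lower with Myb shRNA at day 9 (-1.28) and higher at day 3 (0.86), without overlap on either day, and the interaction was -2.15 ± 0.37 (adjusted p = 0.0114). Dkk3, a secreted protein of the dickkopf family, differed by -2.08 at day 9 and 0.24 at day 3 (interaction -2.32 ± 0.42, adjusted p = 0.0151; 10 of 12 fits that left out 1 array, up to 0.0579). Unlike Lbh, Dkk3 fell with day under Myb shRNA, by 1.87, while its change of 0.45 under scrambled shRNA did not pass.

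Other genes of this group were less firm. Synm, an intermediate filament protein, had -1.90 ± 0.42 (adjusted p = 0.0368; 4 of 12 fits that left out 1 array). Ly6c1 had -2.02 ± 0.40 (adjusted p = 0.0222; 7 of 12 fits) and Speer4c -1.85 ± 0.37 (adjusted p = 0.0234; 5 of 12 fits), both of families with near-identical copies that can share signal. Krt8, a keratin of luminal cells, had -0.80 ± 0.18 (adjusted p = 0.0475; 2 of 12 fits), and Usp18, a negative regulator of the interferon response, -0.82 ± 0.18 (adjusted p = 0.0384; 3 of 12 fits). Usp18 was the 1 of 22 interferon response genes that passed, and with the block within day Oasl2, an oligoadenylate synthetase-like gene, passed too.

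Of 33 club and secretory cell markers, 1 passed above 0 (Fmo2) and 1 below (Krt8), against 0.746% and 0.906% of all genes, with a median of 0.01. Bpifb1, a secreted defence protein of the airway, had a larger interaction that did not pass, at -2.41 ± 0.59 (adjusted p = 0.0596). With the replicate number as a block within day it passed (adjusted p = 0.000346), and the list had 6 calls above 0 and 4 below. Over all 9381 genes these calls were 403 and 490. Of 15 goblet cell and mucus genes, 2 passed below 0, Clca3b and Muc16, where 0.906% of all genes did. The list's median was -0.36, with 4 members above 0. With the block 5 passed, all below 0, where 490 of 9381 genes did. None of 15 antimicrobial genes (median 0.24), none of 5 tuft, ionocyte and neuroendocrine markers (-0.40), none of 7 leukocyte markers (0.47) and none of 18 alveolar markers (0.33) passed. Among the alveolar genes Ager, a pattern receptor of the alveolar epithelium, was higher with Myb shRNA by 4.47 at day 9 and by 2.41 at day 3 (interaction 2.06 ± 0.49, adjusted p = 0.0543, and 0.00713 with the block). None of 15 Notch genes (-0.05) and none of 22 BMP and TGF-beta genes (0.02) passed. With the block within day the calls above and below 0 were 0 and 1 for antimicrobial, 0 and 2 for tuft, ionocyte and neuroendocrine, 1 and 0 for leukocyte and 4 and 1 for alveolar genes. They were 0 and 1 for Notch genes, and 2 and 5 for BMP and TGF-beta genes. Over all 9381 genes tested they were 403 and 490.

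In the smallest group, genes were higher with Myb shRNA at day 9, and none of its 8 genes passed in all 12 fits that left out 1 array. Ildr2, a protein of tricellular junctions, read 6.43, 6.31 and 6.71 with Myb shRNA at day 9, at least 1.98-fold above scrambled cultures, in which it was not well above background. The day 3 levels were 5.18, 4.93 and 5.39 with Myb shRNA and 4.93, 5.08 and 6.10 with scrambled shRNA, which overlapped. The interaction was 1.81 ± 0.36 (adjusted p = 0.0247; 5 of 12 fits). Pmp22, a membrane protein of myelin and epithelial junctions, read 10.90, 11.00 and 11.00 with Myb shRNA and 10.09, 10.07 and 9.94 with scrambled shRNA at day 9. On day 3 the readings were 10.21, 10.14 and 10.22 with Myb shRNA and 9.95, 10.25 and 9.82 with scrambled shRNA, an interaction of 0.75 ± 0.16 (adjusted p = 0.0346; 2 of 12 fits).

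Akr1c18, a steroid dehydrogenase, changed with day by -0.85 under Myb shRNA and by -2.34 under scrambled shRNA, both falls that passed (interaction 1.49 ± 0.33, adjusted p = 0.0368; 4 of 12 fits). Pcca, a subunit of propionyl-CoA carboxylase, had 0.81 ± 0.16 (adjusted p = 0.0249; 4 of 12 fits) and Blnk, an adaptor of B cell signalling, 1.04 ± 0.21 (adjusted p = 0.0278; 4 of 12 fits). Fmo2, a flavin monooxygenase, and Tmem54, a membrane protein, passed in opposite directions at the days: Tmem54 differed by 0.46 at day 9 and -0.42 at day 3 (interaction 0.88 ± 0.17, adjusted p = 0.0178; 9 of 12 fits). Fmo2 differed by 0.50 at day 9 and, with no day 3 Myb shRNA array detecting it, was at least 1.21-fold lower at day 3 (interaction 0.98 ± 0.22, adjusted p = 0.0388; 3 of 12 fits). With arrays centred on their medians, Ildr2, Pcca, Pmp22, Blnk, Fmo2 and Tmem54 did not pass.

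Probes of the same gene gave a check within the arrays. Of the 155 genes, 55 had 80 other detected probes, of which 76 had the same sign and 27 passed on their own. Of all 13793 detected probes with a gene name, 187 passed in that fit, the probes of these genes included. Of the 155, 92 were detected on all 12 arrays, beside 7426 of all 9381 genes tested.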

How the data were processed

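RNA of 12 cultures was measured on Illumina bead arrays, with biotin-labelled antisense RNA. The deposited unnormalised table gives, per the file headers, an intensity and the detection p-value that goes with it, on every array, for 45281 probes; 28.8% to 34.4% of intensities lie below 0, so a background had been subtracted. A second table deposited by the authors holds log2 values (median 6.02 on each array) whose offset and normalisation are not given in the sources used here. The submitters' processing notes name BeadStudio 3.0 and limma, with no step.

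In R 4.3.3 with limma 3.58.1, neqc modelled the background from detection p-values and normalised quantiles, with an offset of 16 before log2. Probes detected at p under 0.01 on at least 3 arrays were kept (15526, of which 1733 had no gene name and were left out). Names came from the platform annotation, updated through RefSeq (GRCm38.p6). For 3182 genes with several probes the one with the highest mean was used, leaving 9381 genes. The 4 group means were fitted to all 12 arrays (8 residual degrees of freedom, moderated with a trend), p-values are limma's (two-sided, Benjamini-Hochberg over all genes), and they measure the spread between replicates that the series calls biological. The number of arrays limits the precision: the median SE was 0.237 for an interaction and 0.167 for a difference within a day. The script was tested on simulated data.

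Where no array of a group detected a gene, its difference within a day is a bound, the bright group's mean against, per array, the higher of the lowest level among detected probes and the gene's own level. Interactions carry no such bound. Genes named are, in each of the 4 kinds, the 8 with the largest interaction (names that are only clones or numbers left out), those passing at both days with opposite signs, and up to 4 members of each of 24 gene lists with the smallest p, of which the text gives a part. Tekt1, Cfap45, Mycl, Foxj1, Rfx2, Ccdc78, Ift172, Dnah1, Dnah5 and Dnah9 fall outside this rule and were chosen after their values were seen. Tmprss4 and Ybx3, named for probes of the other sign, do so as well. The members and lists were chosen with earlier results of these data known. Alternatives were other normalisations, offsets, filters, probe rules and moderation, a replicate block, array weights, a linear scale and leaving out each array.

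Whether replicate numbers pair arrays was checked by the correlation of deviations from group means. Within each day all 6 pairs with the same number were above 0.1 (0.15 to 0.622), and over all groups 16 of 18 were (0.0196 to 0.622). Pairs of number 3 averaged 0.49, of number 1 0.265 and of number 2 0.228. Arrays numbered 1 against those numbered 2 averaged 0.256. Within day 9 the same-number pairs of 1 and 2 were at 0.496 and 0.297, and 1 against 2 at 0.188 and 0.226. Within day 3 the same-number pairs were at 0.15 and 0.265, and 1 against 2 at 0.477 and 0.232. The check thus sets number 3 apart and cannot show that numbers 1 and 2 pair arrays. The fit without a block was kept as the one planned, and the fit with the number as a block within day is given beside results whose call it changes.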

Additional observations from a re-analysis of the deposited data

Results flagged for a closer look

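The shRNA effect differed between day 9 and day 3, by the interaction test itself, for 155 genes. Values here are interactions in log2 units. Among genes lower with Myb shRNA at day 3 they were 3.56 for Plvap, 3.24 for Shisa8, 2.53 for Ccna1, 2.43 for Lrrc23, 2.21 for Mcidas, 2.15 for Foxn4, 2.11 for Ccno, 2.02 for Morn5, 1.94 for Zmynd10, 1.78 for Tekt1, 1.75 for Dnali1 and 1.69 for Dynlrb2. They were 1.52 for Cfap45, 1.45 for Cyp4a12a, 1.28 for Cdk1, 1.20 for Cyp4a12b and 1.13 for Rsph9. Among genes higher with Myb shRNA at day 3 they were -2.40 for Muc16, -2.09 for Pcbd1, -2.06 for Nrp1, -1.85 for Nid1, -1.78 for Cdkn2a, -1.69 for Spon2, -1.68 for both Ddit4l and Dennd2a, -1.46 for Osbpl3, -1.15 for Ano1 and -0.84 for Egfr.

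Among genes lower with Myb shRNA at day 9 they were -2.79 for Clca3b, -2.32 for both Timp4 and Dkk3, -2.26 for Lbh, -2.15 for Rnase4, -2.02 for Ly6c1, -1.90 for Synm, -1.85 for Speer4c, -1.16 for Chn2, -0.82 for Usp18 and -0.80 for Krt8. Among genes higher at day 9 they were 1.81 for Ildr2, 1.49 for Akr1c18, 1.04 for Blnk, 0.98 for Fmo2, 0.88 for Tmem54, 0.81 for Pcca and 0.75 for Pmp22.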

How the results depend on the processing

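All 155 interactions that passed kept their sign on the log2 scale in each alternative that refitted the gene's own value. In the fit of each probe on its own, 76 of 80 other probes had the same sign; the exceptions were Dnali1 (-0.31), Tmprss4 (-0.00) and Ybx3 (0.27 and 0.40). On the linear scale the interaction was below 0 for Dynlrb2 (-2359), Tekt1 (-1051), Rsph9 (-618.4), Morn5 (-322.1), Dnali1 (-175.4) and Cfap45 (-157.6). The count of 155 (70 above 0 and 85 below) came to 715 with a replicate block (329 and 386), 893 with the block within each day (403 and 490), 1835 with array weights (920 and 915) and 1410 without the arrays numbered 3 (710 and 700), the last an alternative chosen after seeing the data, as was the fit of each probe on its own. It was 47 with median centring (22 and 25) and 80 with detection on all 12 arrays (51 and 29, from 7426 genes tested). Leaving out 1 array gave 52 to 328 genes (32 to 156 above 0, and 20 to 172 below). It gave 949 to 1900 genes for day 9 alone and 1445 to 3023 for day 3 alone, against 2331 and 3400 with the replicate block. The other alternatives gave 123 to 187, and 125 of the 155 also passed in the deposited log2 values. The causes of these changes were not tested. A slide block was not run, since the files give no slide. Signal limits 26 of the 41 genes lower at day 9, in which a whole group was not above background. The same held for 6 of the 62 genes, 12 of the 44 and 2 of the last 8, which makes 46 of the 155. The share over all genes tested is not given here.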

Other observations

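Genes of the oxidant defence and of the respiratory chain were mostly above 0 without any passing. Of 27 Nrf2 and glutathione genes, 24 had an interaction above 0, with a median of 0.36, against 5054 of 9381 genes tested and a median of 0.03. With Myb shRNA 3 rose and 1 fell at day 9, and 0 rose and 8 fell at day 3. Of all genes, 6.65% rose and 9.48% fell at day 9, and 11.5% rose and 11.2% fell at day 3. Hmox1, haem oxygenase, had 0.82 ± 0.28 (limma adjusted p = 0.193) and Gstm1, a glutathione transferase, 0.46 ± 0.15 (adjusted p = 0.162). Of 33 oxidative phosphorylation genes 26 were above 0, with a median of 0.14, and 1 fell at day 3, where 11.2% of all genes did. None of either list passed at an adjusted p of 0.05. The counts above 0 were not repeated under other normalisations. The median of all genes moved under these, to -0.04 with cyclic loess. With the replicate number as a block within day 10 genes of the oxidant defence list passed, all above 0, among them Hmox1 and Gstm1 (adjusted p = 0.00164 and 0.04), and 2 of the respiratory chain list, where 9.52% of all genes passed.

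Krt13, a keratin of squamous and hillock cells, had a large value with a wide error, 2.49 ± 1.40 (adjusted p = 0.45). Of 1733 detected probes without a gene name, 9 passed in a fit of all detected probes, in which 174 probes passed in all.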
